A study of Mus musculus with 17 samples.

Results

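The G protein-coupled receptor kinases (GRKs) and beta-arrestins shut off and redirect signaling from receptors that couple to G proteins. They were followed through 17 bulk RNA-seq libraries of mouse astrocytes purified by immunopanning. The 7 members were taken by symbol from the gene count table: the kinases *Grk2*, *Grk3*, *Grk4*, *Grk5* and *Grk6* and the arrestins *Arrb1* and *Arrb2*. All 7 were present among 56691 gene rows. The family was chosen by the difference of *Grk3* between cultures given SAG and cultures given DMSO, so the members' values in that comparison, and of *Grk3* wherever the same DMSO libraries enter, are given as a description without a test.

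Cells came from whole brains of C57BL/6 mice at postnatal day 2, with olfactory bulbs, cerebellum and meninges removed. Dishes coated against CD45 and the O4 antigen depleted microglia, macrophages and oligodendrocyte precursors, and a HepaCAM antibody then retained astrocytes. All 5 groups were grown in a serum-free medium that held heparin-binding EGF-like growth factor, so every control carried that ligand too. SAG, a small molecule that activates Smoothened, was added at 500 ng/ml on day 3 in vitro for 3 days (n = 3) and its solvent DMSO was added to the control cultures over the same period (n = 3). FGF2 (n = 4) or FGF10 (n = 3), each at 50 ng/ml, or the vehicle PBS (n = 4), was added on day 2 in vitro for 7 days. The methods call the libraries biological replicates, and the study's figure legend for the SAG comparison calls them sample pools. Neither these texts nor the labels say which animals or pannings a replicate came from. The p-values therefore measure the spread between these libraries only. In such bulk cultures, fewer cells of a type and less RNA per cell cannot be told apart.

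When a ligand binds a G protein-coupled receptor, a GRK phosphorylates the active receptor, a beta-arrestin then docks on the phosphorylated tail, blocks further coupling to the G protein and links the receptor to clathrin-coated pits. *Grk2* and *Grk3* form one subfamily, whose kinases are brought to the membrane by free G protein beta-gamma subunits, and *Grk4*, *Grk5* and *Grk6* form another, whose kinases sit at the membrane through lipid or basic anchors. Smoothened has the fold of a G protein-coupled receptor, and *Grk2*, *Grk3* and the beta-arrestins are known to take part in its phosphorylation and movement into the primary cilium after Hedgehog activation, which gives the SAG comparison its interest for the family.

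Total counts ran from 17481727 to 68342287 per library with a median of 37173676. The 10 astrocyte markers summed to 3399 to 5478 CPM (counts scaled to each library's normalized total) across the libraries, and *Slc1a3*, *Sox9*, *Aldoc* and *Hepacam* had counts in each of the 17. Among 10 microglial markers, *Csf1r*, *C1qb* and *Aif1* were at 0 in each library, and the list summed to at most 39.4 CPM. Markers of the oligodendrocyte lineage summed to 123 to 590 CPM and the 5 ependymal markers to 83.1 to 590 CPM, nearly all of it from *Foxj1* and *Dynlrb2*, while *Tmem212* was at 0 in 10 libraries and *Ccdc153* in 7. Libraries read the 3′ end of each transcript, so CPM does not scale with transcript length and levels could be set side by side between genes, although how well each gene's end is captured was not tested.

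In the GRCm38 genome (GENCODE M21 annotation), *Grk3* (ENSMUSG00000042249) lies on the minus strand at chr5:112910482-113015791 and *Grk2* (ENSMUSG00000024858) on the minus strand at chr19:4286001-4306222. *Grk5* (ENSMUSG00000003228) lies on the plus strand at chr19:60889749-61095968, *Grk4* (ENSMUSG00000052783) on the plus strand at chr5:34660379-34755305 and *Grk6* (ENSMUSG00000074886) on the plus strand at chr13:55445072-55460927. *Arrb1* (ENSMUSG00000018909) is on the plus strand at chr7:99535466-99606771 and *Arrb2* (ENSMUSG00000060216) on the plus strand at chr11:70432635-70440828. No 50-base word from the last 1000 bases of any member's transcripts was shared with another member, so reads at these ends can tell the members apart. *Grk6* shared 3.22% of such words with *5430434F05Rik* and *Grk4* shared 0.417% with other genes, while the other 5 members shared none. By gene span, the last 2000 bases of *Grk5* overlap *Zfp950* on the opposite strand, although no 50-base word of the *Grk5* ends was found in *Zfp950* transcripts. The strand setting of the counting is not given in the sources used here, and the assignment of reads to these 2 genes was not tested. In the 2 libraries without a *Grk5* read, *Zfp950* had 1366 and 1588 reads.

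*Grk3*, the kinase of the beta-gamma-dependent subfamily first known as a beta-adrenergic receptor kinase, had the highest mean of the members in every group, although *Arrb1* exceeded it in PBS replicate 2 and FGF10 replicate 2, and was several times higher with SAG than in any other condition. Its level was 139, 156 and 89.6 CPM in the 3 DMSO libraries and 685, 549.8 and 576 CPM in the 3 SAG libraries. In PBS it was 129, 89.2, 175 and 173 CPM, in FGF2 139, 111, 152 and 146 CPM, and in FGF10 83.6, 117 and 185 CPM. Every SAG library lay above all 14 others, and the 4 remaining groups overlapped each other. The group means were 604 ± 71.7 CPM for SAG (SD, n = 3), 142 ± 40.8 for PBS (n = 4), 137 ± 18.1 for FGF2 (n = 4), 128 ± 51.6 for FGF10 (n = 3) and 128 ± 34.5 for DMSO (n = 3). In this order only the step from SAG to PBS, 462 CPM, was larger than the spread within groups.

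*Grk2*, its closest relative and the GRK that most cells express, had no such pattern. Its level was 48.4, 30.1 and 45.7 CPM in DMSO, and 15.8, 94.3 and 45.7 CPM in SAG, where the lowest and the highest of all 17 libraries stood side by side. PBS gave 40.4, 74.5, 72.3 and 36.1 CPM, FGF2 gave 47.1, 54.1, 65.5 and 66.0 CPM, and FGF10 gave 62.3, 24.9 and 47.1 CPM. The 5 group means fell between 41.4 ± 9.88 CPM (DMSO, SD, n = 3) and 58.2 ± 9.23 CPM (FGF2, n = 4), and no neighbours in their order differed beyond the spread.

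The kinases of the other subfamily were scarcer. *Grk6*, which is widely expressed, was at 9.77, 24.3 and 23.2 CPM in DMSO and at 0, 27.5 and 20.1 CPM in SAG. It was at 14.98, 12.7, 33.6 and 26.5 CPM in PBS, at 37.5, 26.1, 38.7 and 14.8 CPM in FGF2 and at 9.84, 17.1 and 19.0 CPM in FGF10. All groups overlapped. The 0 in SAG replicate 1 stands where the gene's level in the other libraries would give 774 reads, and 71 of 1732 genes of like level (4.10%) were also at 0 in that library.

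*Grk5*, a kinase with a nuclear localization sequence known from heart and muscle, averaged 6.77 CPM over the 17 libraries and ran from 0 in PBS replicate 2 and FGF2 replicate 4 to 25.4 CPM in PBS replicate 1. *Grk4*, best known from testis and kidney, averaged 7.86 CPM and ran from 0 in 3 libraries (DMSO replicate 3, FGF2 replicate 4 and FGF10 replicate 3) to 27.0 CPM in PBS replicate 1. Both reached their highest value in the same library, and replicates of 1 group could lie far apart, as with *Grk5* at 25.4, 0, 17.1 and 0.48 CPM in PBS. In the 5 cases where *Grk4* or *Grk5* had no read, 8.49% to 24.3% of genes of like level were at 0 in that library too, so a 0 at this level does not show that the gene was silent.

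*Arrb1* was the more abundant of the beta-arrestins in 14 of 17 libraries. Its level was 46.8, 43.2 and 69.7 CPM in DMSO and 20.6, 22.4 and 38.5 CPM in SAG, and these groups did not overlap. PBS gave 81.0, 98.0, 38.3 and 48.9 CPM, FGF2 gave 64.3, 64.5, 23.6 and 43.0 CPM, and FGF10 gave 61.7, 128 and 29.7 CPM, the widest spread of any group. SAG had the lowest mean, 27.2 ± 9.87 CPM (SD, n = 3), 21.7 CPM under FGF2, the next group, but 1 library each of FGF2, FGF10 and PBS reached the SAG range. *Arrb2*, the second beta-arrestin, was at 17.5, 43.9 and 17.9 CPM in DMSO and at 47.7, 17.1 and 18.4 CPM in SAG. It was at 14.1, 36.0, 16.5 and 27.4 CPM in PBS, at 14.3, 23.7, 41.8 and 7.40 CPM in FGF2 and at 7.94, 22.2 and 2.06 CPM in FGF10. Its groups overlapped throughout.

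**Figure D1:**
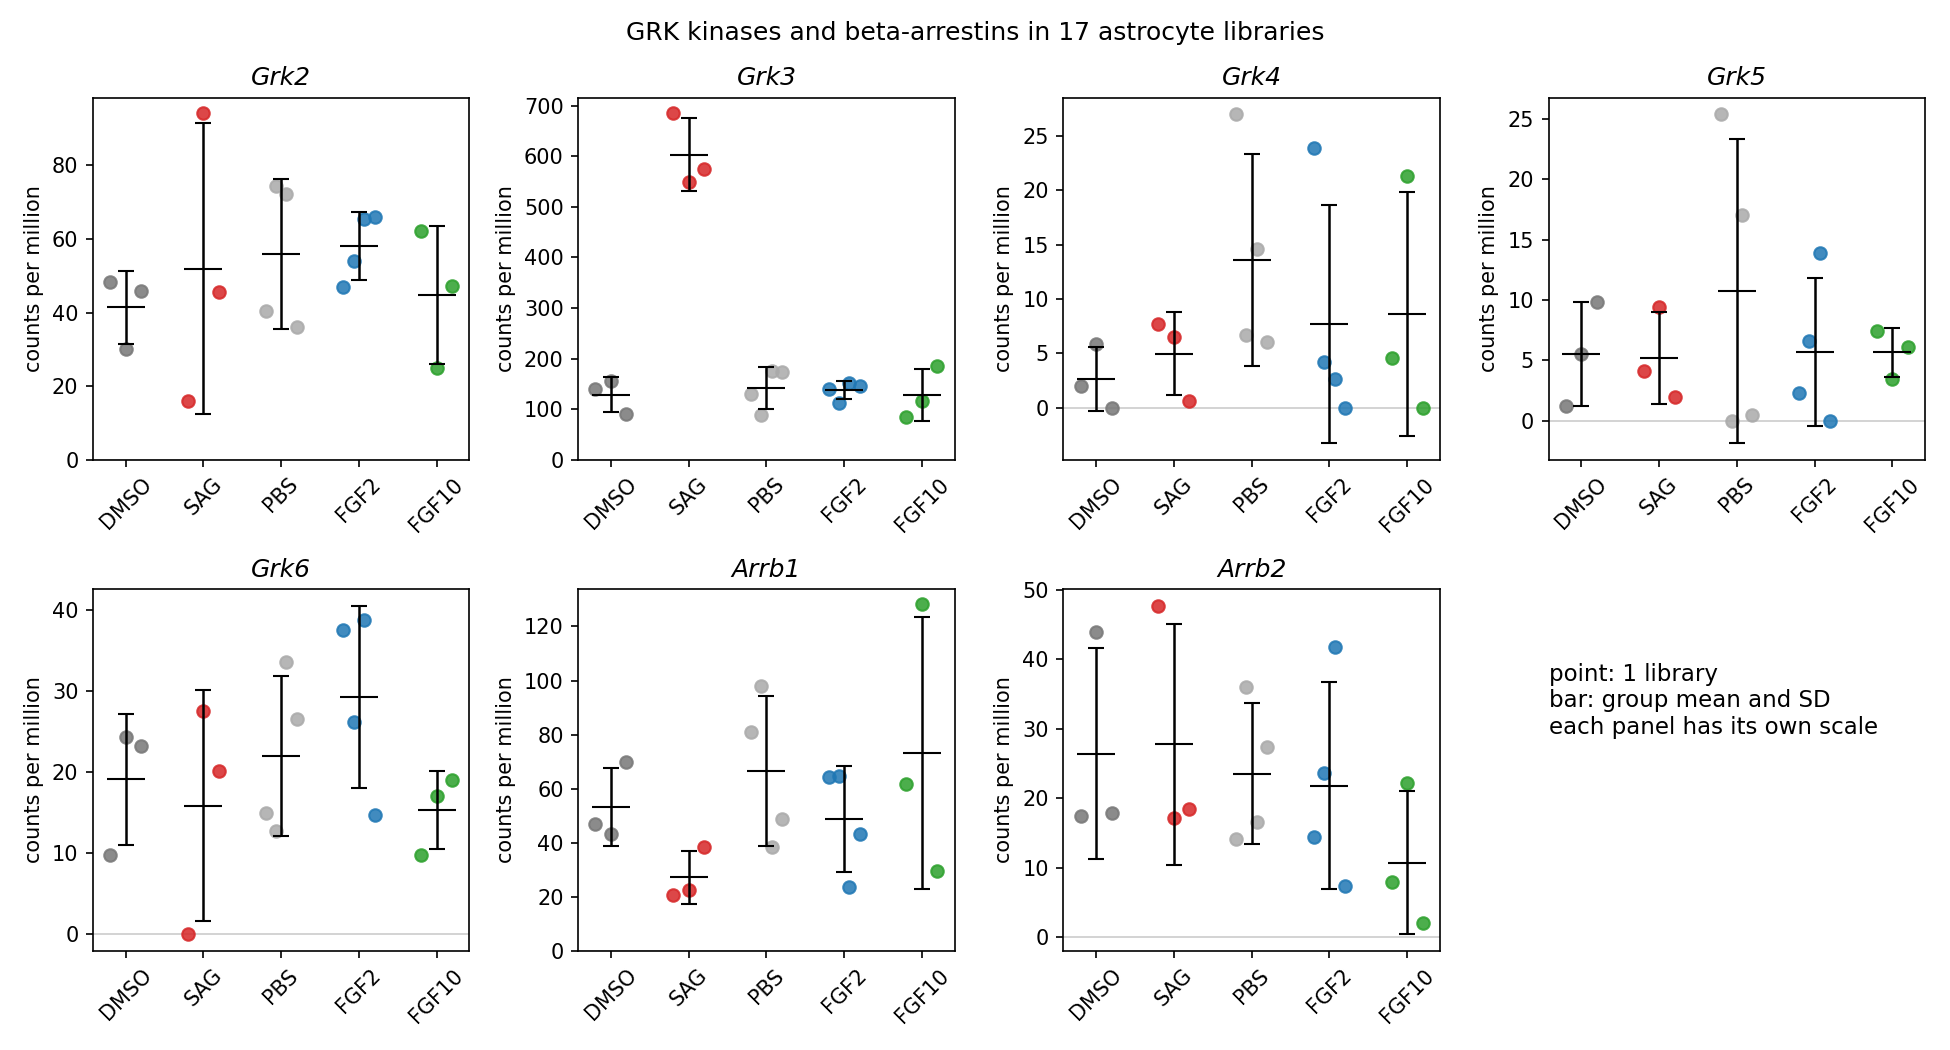
Level of each of the 7 members in CPM (vertical axis, linear, a scale of its own in each panel) for the 5 groups, 1 point per library with the group mean and SD as a bar. The 3 SAG libraries of *Grk3* sit between 549.8 and 685 CPM, above all others, and those of *Arrb1* sit between 20.6 and 38.5 CPM, below all DMSO libraries.

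In the SAG comparison, which asked how astrocytes respond to activation of the SHH pathway, all 7 members passed the filter on low counts. *Grk3* had a mean 4.71 times that of DMSO, and its log2(fold-change) was 2.26 ± 0.24 (SE). Leaving out each library in turn gave 2.05 to 2.42. *Arrb1* had a mean 0.51 times that of DMSO, with a log2(fold-change) of -0.94 ± 0.48, and -1.30 to -0.71 when each library was left out. The others stood at 0.35 ± 0.58 for *Grk2*, 0.93 ± 2.65 for *Grk4*, -0.07 ± 2.06 for *Grk5*, -0.24 ± 1.53 for *Grk6* and 0.09 ± 0.70 for *Arrb2*, each with an SE larger than its value. The signs of *Grk2*, *Grk5*, *Grk6* and *Arrb2* turned when single libraries were left out.

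Across the whole table, edgeR's quasi-likelihood test called 8 of 12538 genes (0.0638%) at an adjusted p under 0.05 between SAG and DMSO, and 14.1% of genes had groups that did not overlap. Of the 7 members, *Grk3* and *Arrb1* did not overlap. As this contrast chose the family, these counts are printed without being read as a result. Oligodendrocyte-lineage markers summed to 138 to 174 CPM in SAG and 194.7 to 316 CPM in DMSO, and ependymal markers to 85.6 to 154 and 210 to 286 CPM, and neither pair of ranges overlapped. The astrocyte list overlapped, at 3627 to 4295 against 4178 to 4497 CPM. The part of these cell types in the levels of *Grk3* and *Arrb1* was not tested. SAG replicate 1 held the highest sum of microglial markers, 39.4 CPM, from *C1qc* and *Cd68* in the main, while *Csf1r*, *C1qb* and *Aif1* had no count there. It also held the highest *Arrb2*. A relation between these markers and the *Arrb2* level was not tested.

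**Figure D2:**
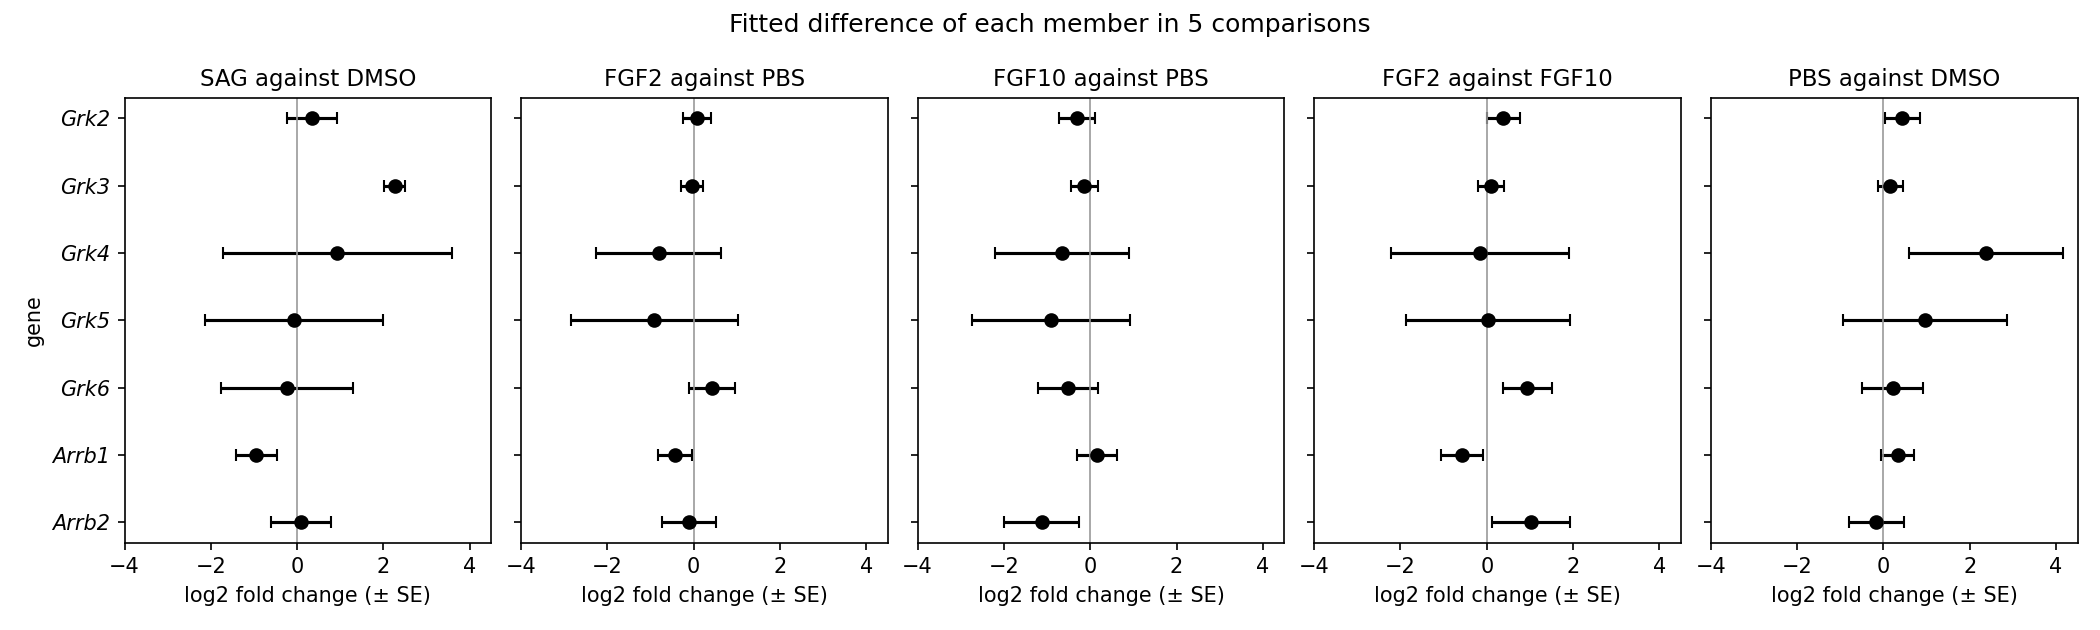
Fitted log2(fold-change) of each member (points) with its standard error (bars) in the 5 comparisons, 1 panel each, on a shared horizontal axis. *Grk3* lies at 2.26 in the SAG panel and within 0.16 of 0 in the other 4, and the low-count kinases *Grk4* and *Grk5* have the widest bars.

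By description, the kinase pool was dominated by *Grk3* in SAG. *Grk3* made up 64.3% ± 9.62 of all GRK counts in DMSO (SD, n = 3), 57.7% ± 9.67 in PBS (n = 4), 57.7% ± 4.497 in FGF2 (n = 4), 61.8% ± 11.1 in FGF10 (n = 3) and 88.5% ± 8.11 in SAG (n = 3). The summed level of the other 4 kinases was 68.7 ± 9.05 CPM in DMSO and 77.9 ± 55.6 CPM in SAG. The lowest *Grk3* share in SAG, 80.0%, came from replicate 2, where *Grk2* was at 94.3 CPM, and the highest, 96.1%, from replicate 1, where *Grk2* was at 15.8 CPM. On the arrestin side, *Arrb1* held 67.3% ± 15.7 of beta-arrestin counts in DMSO, 51.5% ± 19.3 in SAG, 73.1% ± 8.87 in PBS, 69.1% ± 22.6 in FGF2 and 89.1% ± 4.15 in FGF10. In SAG the arrestin balance rested on replicate 1, at 30.1%, with the other 2 libraries at 56.7% and 67.7%.

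**Figure D3:**
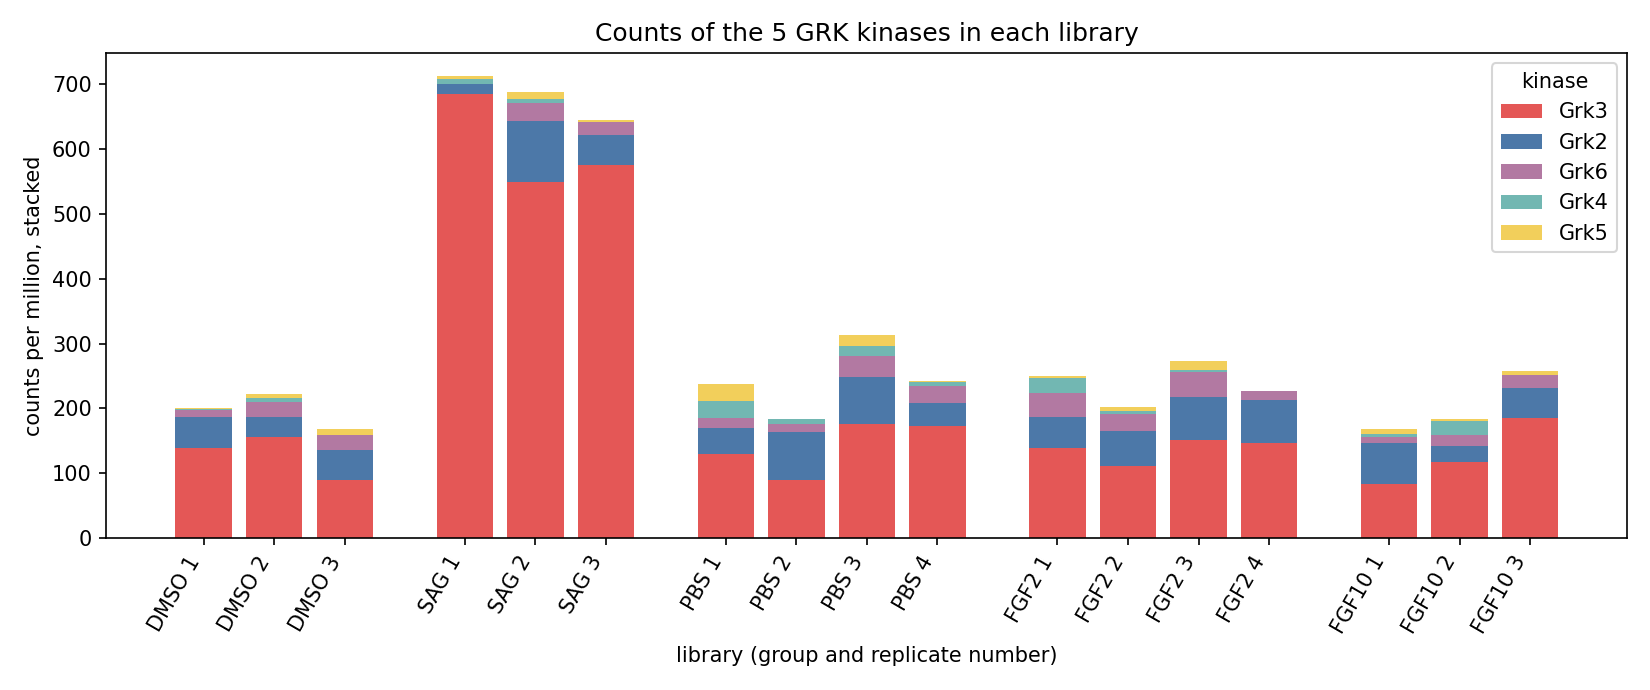
Stacked CPM of the 5 GRK kinases in each of the 17 libraries (bars start at 0, colors mark the kinases). The 3 SAG bars reach 644 to 713 CPM, of which *Grk3* made up 80.0% to 96.1%, against 168 to 313 CPM in the other 14 libraries.

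Hedgehog readouts and the machinery around Smoothened were set beside the members. *Ptch1*, the Hedgehog receptor and a direct target of the pathway, was at 465, 483 and 458 CPM in SAG and at 81.5, 103 and 67.6 CPM in DMSO, and it was among the 8 genes called. *Gli1*, a transcription factor and target, had no count in any DMSO library and was at 38.3, 6.68 and 6.71 CPM in SAG, and *Hhip*, a ligand-binding inhibitor, had no count in DMSO and averaged 12.9 ± 3.60 CPM in SAG (SD, n = 3). Neither was called by edgeR (adjusted p of 0.369 and 0.425), although DESeq2 called both.

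The other 7 lists held 117 genes, of which 87 were tested between SAG and DMSO. The lists were chosen with earlier results of these data known. Their shares, here and in the other comparisons, are a description and not evidence of enrichment. None was called by edgeR, 10 (11.5%) had an unadjusted p under 0.05, against 5.69% of all genes, and DESeq2 called 4 of them, against 3.01% of all genes (*Gng12*, *Ednra*, *Grm5* and *Gabbr2*, of which the last 2 are named after their values were seen). Groups did not overlap for 17 of the 87 genes (19.5%), against 14.1% of all genes tested. Among 20 genes of the cilium and protein kinase A branch around Smoothened, 15 had a positive and 5 a negative log2(fold-change), none of them called. Their median was 0.21, against -0.02 over all genes, of which 48.9% had a positive value. Its extremes were *Evc2*, a ciliary protein that binds Smoothened, at 2.42 ± 1.67 (SE) and *Gnai3*, an inhibitory G protein subunit, at -0.85 ± 0.35. *Evc2* was at 14.4 ± 8.58 CPM in SAG and 2.75 ± 2.17 CPM in DMSO (SD), and *Gnai3* at 53.6 ± 13.3 and 98.1 ± 31.5 CPM. In PBS cultures *Evc2* was at 13.6 ± 14.5 CPM and *Gnai3* at 48.7 ± 21.3 CPM, on the SAG side of DMSO in both cases. The PBS and DMSO libraries overlapped for both genes. Between SAG and DMSO neither gene was called (DESeq2 adjusted p of 0.380 for *Evc2* and 0.211 for *Gnai3*). Why PBS lay on the SAG side was not tested.

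*Gng12*, one of the gamma subunits whose dimers with beta subunits recruit *Grk2* and *Grk3*, had the largest positive value among 10 tested beta and gamma subunits, 0.96 ± 0.25, with 229 ± 64.6 CPM in SAG and 120 ± 8.64 CPM in DMSO (SD, n = 3 each, adjusted p = 0.425 by edgeR). The median of the 10 was -0.23, with 3 positive and 7 negative. Clathrin, AP2 and dynamin genes, which take up arrestin-bound receptors, had a median of 0.00 over 11 genes, 6 positive and 5 negative. The extremes were *Clta* at 0.38 ± 0.26 and *Dnm1* at -4.49 ± 3.71. *Dnm1* was near 0 in SAG and at 6.40, 0.26 and 0 CPM in DMSO, with overlap. Of 11 tested RGS proteins, which speed G protein inactivation, 4 were positive and 7 negative with a median of -0.43. *Rgs20* was at 27.5 ± 7.82 CPM in SAG and 68.6 ± 19.6 CPM in DMSO (log2(fold-change) -1.29 ± 0.44), without overlap.

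The alpha-arrestins, relatives of the beta-arrestins that act as adaptors for ubiquitin ligases, had 1 positive and 4 negative values among 5 tested, with a median of -0.06. *Arrdc3* stood at 12.8 ± 3.95 CPM in SAG and 33.0 ± 4.30 CPM in DMSO (SD, n = 3 each, adjusted p = 1.00 by edgeR), and *Arrdc2* at the other extreme at 13.5 ± 8.44 and 1.40 ± 2.37 CPM. GRK and arrestin partners split 5 to 5 with a median of 0.03, from *Cav1* at -1.17 ± 2.14 to *Usp20*, a deubiquitinase that acts on arrestin, at 0.76 ± 0.51. Among 20 tested G protein-coupled receptors of astrocytes, the receptor class on which these kinases act, 11 were positive and 9 negative with a median of 0.20. The purinergic receptor *P2ry1* was at 9.14 ± 3.13 CPM in SAG and 27.6 ± 10.5 CPM in DMSO, and the endothelin receptor *Ednra* at 24.6 ± 18.1 and 0.81 ± 0.76 CPM. PBS cultures, compared with the same DMSO libraries, had *P2ry1* at 10.1 ± 3.66 CPM and *Ednra* at 19.4 ± 6.25 CPM (n = 4), on the SAG side in both cases. The other list genes with values above were mixed. PBS had *Arrdc3* at 32.8 ± 13.8 CPM, like DMSO. It had *Usp20* at 22.7 CPM against 27.4 in DMSO, *Cav1* at 13.3 against 10.4 and *Clta* at 159 against 163, away from SAG. Mean levels of *Gng12*, *Rgs20* and *Arrdc2* lay between DMSO and SAG, nearer DMSO, and *Dnm1* between, nearer SAG. PBS and DMSO libraries overlapped for each of these other genes.

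FGF2 against PBS tested the members in libraries outside the SAG comparison, although earlier results of these data were known when the members were chosen. The test called none of 12744 genes (0%) at an adjusted p under 0.05, with 223 at an unadjusted p under 0.05 and 120 called by DESeq2. None of the 7 members was called by either tool and none had an unadjusted p under 0.05. The log2(fold-change) of *Grk3* was -0.04 ± 0.25 (SE, 95% interval -0.66 to 0.58), and that of *Arrb1* was -0.44 ± 0.40 (-1.41 to 0.54). *Grk2* stood at 0.07 ± 0.33 (-0.73 to 0.87) and *Grk6* at 0.42 ± 0.53 (-0.88 to 1.72), while *Arrb2*, *Grk4* and *Grk5* stood at -0.11 ± 0.62, -0.81 ± 1.45 and -0.91 ± 1.94. All 7 adjusted p were 1.00 by edgeR, and two-sided exact permutation tests gave p from 0.229 to 1, where the smallest p that 4 against 4 libraries allow is 0.0286. All members overlapped between the groups, as did all but 2.42% of genes. For *Grk4* and *Grk5*, changes of many-fold in either direction were not detectable at this spread between libraries.

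FGF10 against PBS, which shares the PBS libraries with the previous comparison, called none of 13309 genes (0%), with 305 at an unadjusted p under 0.05 and 104 called by DESeq2. None of the members was called by either tool or had an unadjusted p under 0.05. *Grk3* was at -0.13 ± 0.32 (SE, 95% interval -0.96 to 0.69), *Grk2* at -0.31 ± 0.42 and *Arrb1* at 0.15 ± 0.46 (-1.05 to 1.34). *Arrb2* had the largest difference of the 7, with 10.7 ± 10.3 CPM in FGF10 (SD, n = 3) and 23.5 ± 10.1 CPM in PBS (n = 4), a log2(fold-change) of -1.13 ± 0.86 (95% interval -3.35 to 1.09), an edgeR adjusted p of 1.00 and an exact permutation p of 0.114. Its log2(fold-change) was -2.24 without FGF10 replicate 2 and -0.64 without FGF10 replicate 3. *Grk6* stood at -0.52 ± 0.70, *Grk4* at -0.65 ± 1.55 and *Grk5* at -0.91 ± 1.84. Groups overlapped for all 7 members and did not for 4.85% of genes.

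Between the ligands, FGF2 against FGF10 called none of 13493 genes (0%), with 324 at an unadjusted p under 0.05 and 90 called by DESeq2, and none of the members by either tool or at an unadjusted p under 0.05. *Grk6* was at 29.3 ± 11.2 CPM in FGF2 (SD, n = 4) and 15.3 ± 4.84 CPM in FGF10 (n = 3), a log2(fold-change) of 0.94 ± 0.57 (SE, 95% interval -0.54 to 2.42) with an edgeR adjusted p of 1.00 and an exact permutation p of 0.143. *Arrb2* stood at 1.03 ± 0.90, *Arrb1* at -0.58 ± 0.48, *Grk2* at 0.39 ± 0.37, *Grk3* at 0.10 ± 0.29 (-0.66 to 0.86), *Grk4* at -0.16 ± 2.06 and *Grk5* at 0.02 ± 1.90. The groups overlapped for all 7, and did not for 4.91% of genes.

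No gene of the lists around the members was called with the FGF ligands. Of 90 genes tested between FGF2 and PBS, 94 between FGF10 and PBS and 92 between the ligands, none was called by edgeR or DESeq2, and 2, 2 and 0 had an unadjusted p under 0.05 (2.22%, 2.13% and 0%, against 1.75%, 2.29% and 2.40% of all genes). *Ptch1* was at 75.9 ± 21.5 CPM in FGF2 (SD, n = 4), 88.2 ± 41.1 CPM in FGF10 (n = 3) and 86.9 ± 14.2 CPM in PBS (n = 4). *Usp20*, the arrestin deubiquitinase, was the partner with the largest positive value against PBS with each ligand, 0.79 ± 0.47 for FGF2 and 0.98 ± 0.50 for FGF10, 2 comparisons that share the PBS libraries. *Gnai1*, an inhibitory G protein subunit, was at 18.7 ± 7.38 CPM in FGF2 and 6.59 ± 0.92 CPM in PBS without overlap (SD, n = 4 each, adjusted p = 1.00 by edgeR). Of the 90 genes, 3 (3.33%) did not overlap between FGF2 and PBS, against 2.42% of all genes, the other 2 being *Git2* at -0.55 ± 0.31 (SE) and *Txnip*, an alpha-arrestin named after its values were seen, at -0.71 ± 0.24. List medians lay between -0.53 and 0.25 for FGF2 and between -0.20 and 0.21 for FGF10, around all-gene medians of 0.00.

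The vehicle cultures differed in solvent, days in vitro and experiment, which cannot be told apart. PBS against DMSO called none of 13271 genes (0%), with 580 at an unadjusted p under 0.05 and 193 called by DESeq2. None of the 6 members tested was called by either tool or had an unadjusted p under 0.05 by edgeR, and *Grk3*, given without a test, was at 0.16 ± 0.29 (SE). *Grk4* was the only member without overlap, with 27.0, 6.67, 14.6 and 6.02 CPM in PBS and 2.01, 5.84 and 0 CPM in DMSO, where 6.42% of all genes tested did not overlap. Its log2(fold-change) was 2.38 ± 1.78 (95% interval -2.20 to 6.96), with an adjusted p of 1.00 by edgeR and 0.622 by DESeq2. The value was 3.76 without DMSO replicate 2 and 1.79 without DMSO replicate 3. The exact permutation p was 0.0286, the smallest that 4 against 3 libraries can give, before adjustment over 6 members. The nearest libraries of the groups were only 0.18 CPM apart. *Grk2* stood at 0.44 ± 0.40, *Grk5* at 0.96 ± 1.91, *Grk6* at 0.22 ± 0.71, *Arrb1* at 0.33 ± 0.38 and *Arrb2* at -0.16 ± 0.63. Of 94 genes tested in the lists around the members, edgeR called none, 11 (11.7%) had an unadjusted p under 0.05, against 4.37% of all genes, and DESeq2 called 4, against 1.30% of all genes (*Gpr37l1*, *Ednra*, *Ednrb* and *Grm5*, named after their values were seen apart from *Ednra*). As earlier results were known when the lists were chosen, these shares too are only a description.

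Within the FGF experiment, replicates 1 and 2 of each group were known from earlier results of these data to stand apart from replicates 3 and 4. The labels give no batch, so this is described and not tested. *Grk3* ran from 83.6 to 139 CPM with a median of 114 in the 6 libraries numbered 1 or 2 and from 146 to 185 CPM with a median of 173 in the 5 libraries numbered 3 or 4. *Arrb1* ran the other way, from 61.7 to 128 CPM (median 72.8) and from 23.6 to 48.9 CPM (median 38.3). Neither gene overlapped between the sets, whatever the treatment, and the other 5 members did. Over 14553 genes, 4.77% did not overlap between the sets.

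Marker sums moved with the same sets. Astrocyte markers summed to 4637 to 5478 CPM in replicates 1 and 2 and 3399 to 3918 CPM in replicates 3 and 4, oligodendrocyte-lineage markers to 397 to 590 and 123 to 348 CPM, and neuronal markers to 113 to 192 and 30.9 to 58.4 CPM. The endothelial and mural list, with most of its sum from *Acta2*, ran from 154 to 350.0 and from 41.0 to 90.6 CPM. Its genes *Cldn5*, *Cdh5* and *Kcnj8* had no count in any library, and *Pecam1* had none in 15, so the sum does not show endothelial cells. Ependymal markers summed to 350.1 and more in the first set (up to 590) and to 83.1 to 231 CPM in the second. Microglial and fibroblast markers were low and overlapped. The part of the cells behind these sums in *Grk3* and *Arrb1* was not tested. With replicates 1 and 2 alone, the log2(fold-change) of *Grk3* between FGF2 and PBS was 0.21 and with replicates 3 and 4 alone it was -0.22, and for *Arrb1* the values were -0.46 and -0.38. For FGF10 against PBS, where the second set holds 1 FGF10 library, replicates 1 and 2 alone gave -0.13 for *Grk3* and 0.08 for *Arrb1*.

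**Figure D4:**
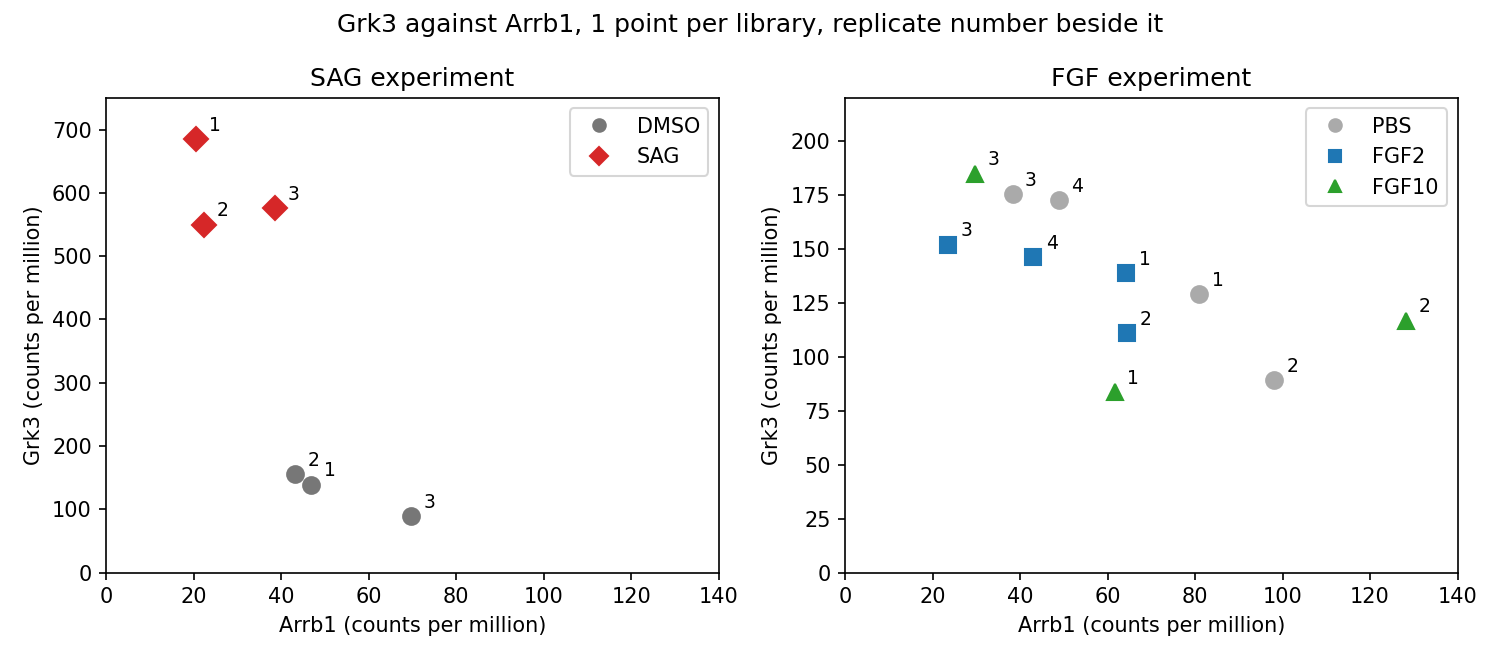
*Grk3* against *Arrb1*, both in CPM on linear axes, 1 point per library with its replicate number, for the SAG experiment (left) and the FGF experiment (right, with a shorter vertical axis). SAG libraries lie at high *Grk3* and low *Arrb1*, and in the FGF experiment every library numbered 3 or 4 lies above and to the left of every library numbered 1 or 2.

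The genes most like *Grk3* were ranked by Pearson's r of log2 CPM over the 17 libraries among 9070 genes with a mean of at least 10 CPM. The values are descriptions without a p, since the 3 SAG libraries stand apart from the rest and set most of the rank, and libraries share treatment and depth. *Ptch1* ranked first (r = 0.933), followed by *Cdk6*, a G1 kinase (0.878), *Smad3*, a transducer of TGF-beta signals (0.863), the GABA transporter gene *Slc6a11* (0.856) and *Gng12* (0.852). Their SAG levels were 468 ± 12.7 CPM for *Ptch1*, 361 ± 7.64 for *Cdk6*, 77.4 ± 14.6 for *Smad3* and 557 ± 96.2 for *Slc6a11* (SD, n = 3), against 84.0 ± 17.7, 94.1 ± 25.2, 23.8 ± 15.9 and 239 ± 43.6 CPM in DMSO (n = 3). The lowest r belonged to *Esyt2* (-0.889), which had no count in any SAG library, *Kctd15* (-0.883) and *Ppp1r15b* (-0.873). The median gene was at -0.01. Among the members r was -0.722 for *Arrb1*, -0.462 for *Grk6*, -0.229 for *Grk2* and 0.148 for *Arrb2*, while *Grk4* and *Grk5* fell below the level needed.

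Over the 14 libraries without SAG the order changed. *Ptch1* fell to 0.497, and the highest values belonged to *Lbh* (0.894), the glycolytic enzyme gene *Pgk1* (0.883), the endoplasmic reticulum chaperone gene *Canx* (0.881), *Sharpin* (0.876) and *Tbrg1* (0.870). The lowest were the mitochondrial tRNA *mt-Ti* (-0.853), *Ndst1* (-0.848) and *Bcr* (-0.847). *Arrb1* stayed negative at -0.671, *Grk6* stood at 0.461, and *Grk2* and *Arrb2* were at -0.157 and -0.165. Of these 14 libraries, 11 are those of the replicate sets above, between which neither *Grk3* nor *Arrb1* overlapped.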

How the data were processed

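Counts per gene were taken for 17 bulk RNA-seq libraries of immunopanned astrocytes. The authors made QuantSeq 3′ mRNA-Seq libraries depleted of BC1 RNA, and used STAR for alignment and for the gene counts. They deposited raw, whole-number counts. The submitters' processing notes name the GRCm38 build, and the annotation, strand setting and any removal of PCR copies are not given in the sources used here. The table has 56805 rows, of which 114 spike-in rows (at most 86 counts in a library) were left out. The SAG columns carry the name Shh in the table. Of FGF2 libraries the methods count 3 and the labels 4, and all were kept.

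Members and lists were chosen with earlier results of these data known. Counts were fitted in R 4.3.3 with edgeR 4.0.16 (filterByExpr at 10 counts and 15 in total, TMM, quasi-likelihood test, Benjamini-Hochberg adjustment), with the libraries of the groups compared only. The script was tested on simulated data with a much smaller spread than these libraries have. That check says nothing about what could be detected here. A call is an adjusted p under 0.05. SE values come from the F statistic and 95% intervals use the residual degrees of freedom among libraries. Levels are CPM with TMM factors over the 17 libraries, and log2 CPM used a prior count of 2. Two-sided exact permutation tests compared mean log2 CPM for single members. DESeq2 1.42.0 was an alternative, along with other filters, scaling and fits. Named genes were the members, the called or most extreme genes of each list, and the genes most and least like *Grk3*. Lists were the cilium and protein kinase A branch, G protein beta and gamma subunits, clathrin with AP2 and dynamin, RGS proteins, visual and alpha-arrestins, GRK and arrestin partners, astrocyte receptors and Hedgehog readouts. The 17481727 to 68342287 counts per library may hold PCR copies, and precision was set by the spread between libraries.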

Additional observations from a re-analysis of the deposited data

How the results depend on the processing

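Over 407 alternative values of the members with a test, 371 kept their direction, 36 turned in sign and none crossed the threshold, and no member was called in any of the 4 comparisons tested. Of 97 values given without a test, 10 turned in sign: *Grk2*, *Grk5*, *Grk6* and *Arrb2* between SAG and DMSO, and *Grk3* between PBS and DMSO (-0.05 without DMSO replicate 3). The smallest adjusted p of a member was 0.622 (*Grk4*, PBS against DMSO, DESeq2). The cause of the changes below was not tested.

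The 8 genes called between SAG and DMSO became 76 without a filter, 42 when a mean of at least 10 counts was asked, 4 with all 17 libraries in one fit, 398 with DESeq2, 4 at the study's threshold (adjusted p under 0.01 and log2(fold-change) above 1) and 1 to 7 with a library left out. The 0 calls became 120 for FGF2 and 104 for FGF10 against PBS, 90 between the ligands and 193 for PBS against DMSO with DESeq2. Without a filter they became 2 (FGF2 against FGF10) and 36 (PBS against DMSO), and the latter was 4 with a mean of 10 counts and 1 with all 17 libraries.

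The main tests used no pairing. Same-numbered correlations ran from -0.02 to 0.12, and no comparison had all above 0.1. They were all positive in the FGF comparisons, at 0.067 to 0.089 for FGF2 against PBS, where differently numbered libraries gave -0.10 to 0.10. Of the latter, pairs within a replicate set gave 0.046 to 0.10, like the same-numbered pairs, and pairs across the sets gave -0.10 to -0.035. A cut at 0.1 cannot decide whether replicate numbers pair the libraries. With the replicate block, 12 genes were called between SAG and DMSO and none elsewhere, *Grk3* was 0.0015 for FGF2 against PBS, *Arrb1* was -0.11 for FGF10 against PBS and *Grk4* was 2.40 for FGF2 against FGF10 and 4.02 for PBS against DMSO. A term for the replicate sets gave *Arrb1* -0.15 for FGF10 against PBS and *Grk4* 1.60 and *Grk5* -0.093 for FGF2 against FGF10. Replicates 1 and 2 alone gave *Grk3* 0.21 and *Grk2* -0.17 for FGF2 against PBS and *Grk4* 0.13 and *Grk5* -0.28 for FGF2 against FGF10, and replicates 3 and 4 alone gave *Grk6* -0.17 and *Arrb2* 0.16 for FGF2 against PBS.

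With each library left out in turn, FGF2 against PBS ran from -0.088 to 0.24 for *Grk2*, -0.21 to 0.079 for *Grk3* and -0.63 to 0.19 for *Arrb2*, and FGF10 against PBS from -0.50 to 0.077 for *Grk3* and -0.55 to 0.51 for *Arrb1*. FGF2 against FGF10 ran from -0.14 to 0.46 for *Grk3*, -1.92 to 1.77 for *Grk4*, -0.93 to 0.44 for *Grk5* and -0.95 to 0.10 for *Arrb1*, and PBS against DMSO from -0.10 to 0.43 for *Grk6* and -0.43 to 0.42 for *Arrb2*. Chosen after the data were seen, the likeness of *Ptch1* to *Grk3* fell from an r of 0.933 to 0.497 over the 14 libraries without SAG.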
